A study of Mus musculus with 5 samples.

Results

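The Rab GTPases are small GTP-binding proteins that mark the membranes of a cell and direct vesicles between them. They were taken as all genes of the array's annotation whose symbol is Rab followed by a number, with at most a letter and a further digit. The rule found 59 genes of 19938 with a probe set of a single symbol. Each gene was read from 1 probe set, and where a gene had several, from the one with the highest mean. The expression arrays measured RNA from 5 cell populations sorted from the bone marrow of wild-type C57Bl/6 mice, with 1 array per population and no treatment. All 5 populations lacked lineage markers and carried CD115. The monocyte-dendritic cell progenitor (MDP) was sorted as CD117+ CD135+, the common dendritic cell progenitor (CDP) as CD117int CD135+, and the common monocyte progenitor (cMoP) as CD117+ CD135-. Classical monocytes were Ly6C+ TremL4- and nonclassical monocytes were Ly6C- TremL4+. The labels give neither age nor the number of mice behind an array.

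A Rab protein switches between a GTP-bound form, which binds effectors on a membrane, and a GDP-bound form, which is drawn off the membrane by GDP dissociation inhibitors (GDI). Exchange factors load GTP, GTPase-activating proteins speed its hydrolysis, and a geranylgeranyl transferase adds the lipid anchor. In phagocytes these switches steer phagosomes through early and late endosomal stages to the lysosome, return receptors to the surface, and release granules and cytokines.

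Values are log2 signals as the authors deposited them, and a difference is the value of the first population named minus that of the second, in log2 units. A difference of 1 log2 unit is 2-fold, and it was counted where the higher of the 2 arrays lay at or above a floor of 6.269, the median of all named genes. With 1 array per population the differences have no replicate check and no p-values were computed. Precision is limited by the number of arrays. A signal also depends on how well its probes bind, so levels are compared between arrays for a gene and not between genes. In bulk RNA, fewer cells with a transcript and less of it per cell cannot be told apart.

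The gates were met by their own genes. Csf1r, which encodes CD115, lay between 10.03 and 12.20 on the 5 arrays. Kit, which encodes CD117, lay between 8.16 and 10.11 in the progenitors and at 5.79 and 5.61 in classical and nonclassical monocytes. Flt3, which encodes CD135, was at 10.75 in MDP and 10.74 in CDP and at 6.4 in cMoP. Treml4, the other monocyte gate, reached 11.78 in nonclassical monocytes and at most 6.18 elsewhere. The genes of Ly6C were not analysed here. The floor was reached by 9831 to 10167 of all named genes on each array.

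Of the 59 Rab genes, 42 reached the floor on at least 1 array, 32 of them on all 5 arrays and 10 on some. The other 17 stayed under it everywhere, and their values ranged over at most 0.71 log2 units across the arrays. These 17 were Rab3a, Rab3b, Rab3c, Rab4a, Rab9b, Rab13, Rab15, Rab17, Rab25, Rab26, Rab27b, Rab30, Rab33a, Rab34, Rab39b, Rab40b and Rab42. Among them are the neuronal vesicle Rabs (Rab3a, Rab3b and Rab3c) and the epithelial Rab17 and Rab25. The lowest signals were those of Rab30 (3.86 to 4.18), Rab3b (4.11 to 4.39), Rab3c (4.22), Rab27b (4.28 to 4.36) and Rab42 (4.36). Rab3a lay between 5.70 and 5.78, Rab4a between 5.78 and 6.05 and Rab9b between 5.82 and 6.00, so these relatives of genes past the floor had no change that could be read. In 26 of the 59 genes at least 2 arrays held exactly the same value, and Rab3c and Rab42 were equal on all 5. Differences smaller than such ties allow cannot be read from the deposited table.

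Of the 42 Rab genes past the floor, 9 ranged over less than 0.5 log2 units across the arrays, and a few differed by several-fold. A range of 1 log2 unit or more across the arrays was found in 16 of the 42 genes past the floor (38.1%), against 36.7% of all genes past the floor, so this share was near the background. The widest ranges were those of Rab44 (3.58), Rab19 (2.78), Rab38 (2.44) and Rab29 (2.43). Rab44 and Rab38 were lowest in nonclassical monocytes, and Rab19 and Rab29 were highest there. A lead of 1 log2 unit or more over every other array was held by Rab19 and Rab29 in nonclassical monocytes and by Rab3d in classical monocytes, 3 genes or 7.14%, against 4.68% of all genes. No Rab gene lay 1 log2 unit or more higher in both monocyte arrays than in all progenitor arrays, where 2.34% of all genes did, and none lay as far below, where 0.769% did.

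**Figure D1:**
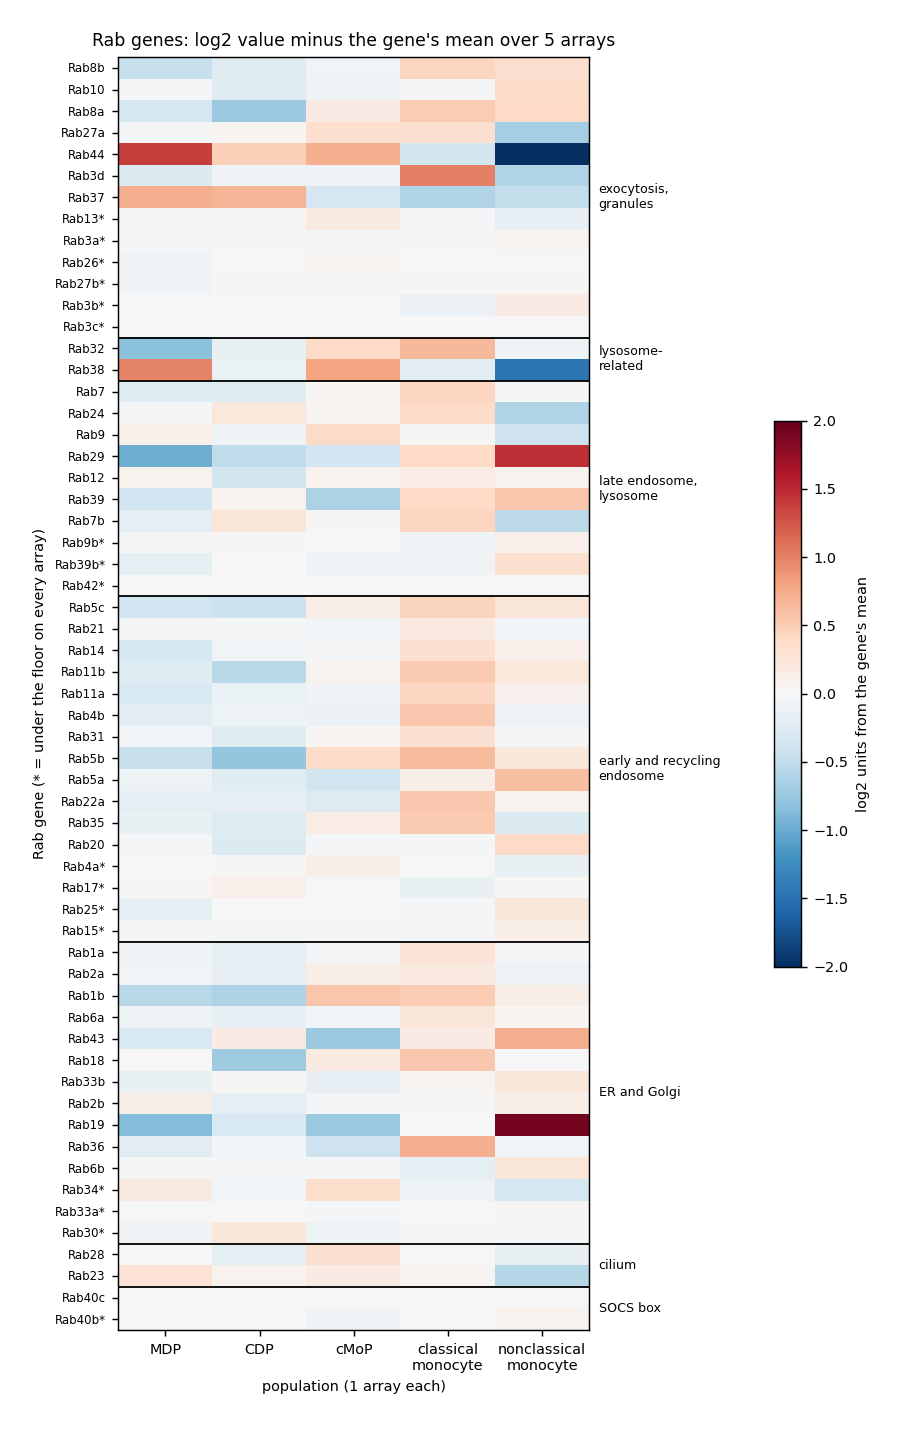
Each row is a Rab gene and each column an array (MDP, CDP, cMoP, classical and nonclassical monocyte), and colour gives the log2 value minus the gene's mean over the 5 arrays, with rows grouped by role, colours capped at 2 log2 units, and an asterisk on genes under the floor everywhere. Most rows are pale, and the deepest colours are those of Rab44, Rab38, Rab29 and Rab19 in nonclassical monocytes.

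The Rabs of exocytosis and secretory granules held the gene with the widest range. Rab44 is an unusually large Rab that takes part in granule release from mouse mast cells. It had values of 10.42 in MDP, 9.51 in CDP, 9.75 in cMoP, 8.66 in classical monocytes and 6.84 in nonclassical monocytes. All 3 progenitor arrays were above both monocyte arrays, with the gap narrowest between CDP and classical monocytes. Rab44 was lower in classical monocytes than in cMoP by a difference of -1.09 (2.13-fold) and lower in nonclassical than in classical monocytes by -1.83 (3.54-fold). Among the 1031 genes counted as lower in nonclassical monocytes, 367 differed as much or more beside it. The difference of CDP from MDP was -0.91, short of 2-fold, and that of cMoP from MDP was -0.67.

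Rab27a tethers granules and lysosome-related organelles at the plasma membrane, and its loss in the ashen mouse impairs granule release. Its values were 9.77 in MDP, 9.85 in CDP, 10.13 in cMoP, 10.13 in classical monocytes and 9.11 in nonclassical monocytes. The nonclassical array stood below the other 4, which lay within 0.37 log2 units of each other. The difference of nonclassical from classical monocytes was -1.01 (2.02-fold), but -0.80 after quantile normalization. Rab27b, its close relative, was between 4.28 and 4.36 on all arrays and so under the floor. Unc13d, which encodes the Rab27 effector Munc13-4, lay between 6.76 and 7.11.

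Rab3d, the Rab3 form of secretory granules outside neurons, had values of 7.25 in MDP, 7.47 in CDP, 7.47 in cMoP, 8.55 in classical monocytes and 6.93 in nonclassical monocytes. Classical monocytes stood above the other 4 arrays. The difference of classical monocytes from cMoP was 1.08 (2.11-fold), but 0.96 after quantile normalization, and that of nonclassical from classical monocytes was -1.62 (3.07-fold). Rab37, found on mast cell secretory granules, was past the floor in the 2 progenitors that carry CD135 and under it elsewhere. It had values of 7.25 in MDP, 7.19 in CDP, 6.18 in cMoP, 5.92 in classical monocytes and 6.04 in nonclassical monocytes. Its difference of cMoP from MDP was -1.07 (at least 1.97-fold, taking the floor for the cMoP value), and that of cMoP from CDP was -1.01 (at least 1.89-fold). After quantile normalization these were -0.93 and -0.92, and after centring the second was -0.95.

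Rab8a, Rab8b and Rab10 carry cargo from the Golgi and recycling endosomes to the surface. Rab8a had values of 9.48 in MDP, 9.07 in CDP, 9.97 in cMoP, 10.32 in classical monocytes and 10.21 in nonclassical monocytes, a range of 1.25 with no single comparison reaching 2-fold. Both monocyte arrays and cMoP were above MDP and CDP. Rab8b had the same order except at the bottom, from 9.94 in MDP to 10.83 in classical monocytes. Rab10 lay between 9.72 in CDP and 10.33 in nonclassical monocytes.

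**Figure D2:**
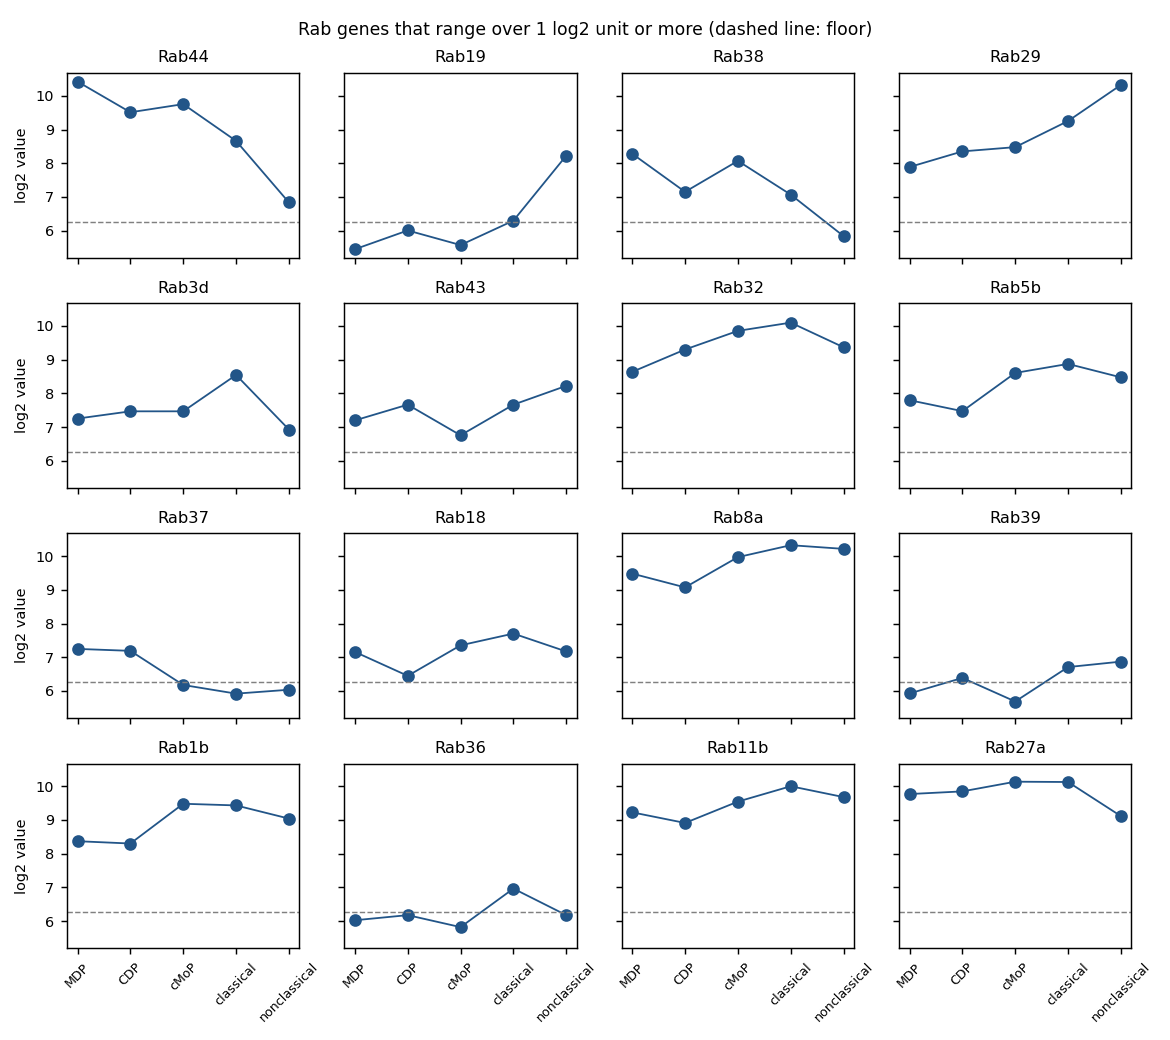
Panels show the log2 value (y axis) on each of the 5 arrays (x axis, 1 point per population, lines only guide the eye) for the 16 Rab genes that range over 1 log2 unit or more, with the floor of 6.269 dashed. Rab44 and Rab38 slope down to the nonclassical monocyte, Rab29 slopes up, and Rab3d peaks in the classical monocyte.

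Rab32 and Rab38 build lysosome-related organelles such as melanosomes, and both are loaded with GTP by the BLOC-3 complex of Hps1 and Hps4. Their 2 patterns did not run together. Rab32 had values of 8.64 in MDP, 9.30 in CDP, 9.86 in cMoP, 10.10 in classical monocytes and 9.37 in nonclassical monocytes. MDP was the lowest array and classical monocytes the highest. Rab32 was higher in cMoP than in MDP by 1.22 (2.32-fold). Rab38, the gene mutated in the chocolate coat colour mouse, had values of 8.28 in MDP, 7.15 in CDP, 8.07 in cMoP, 7.07 in classical monocytes and 5.84 in nonclassical monocytes. It was highest in the 2 progenitors sorted as CD117+ and under the floor in nonclassical monocytes.

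Rab38 was lower in CDP than in MDP by -1.13 (2.19-fold), the single Rab gene counted in that comparison. It was lower in classical monocytes than in cMoP by -1.002, which became -0.97 after centring, and lower in nonclassical than in classical monocytes by -1.23 (at least 1.74-fold). In the last comparison Rab32 differed by -0.73, in the same direction. Between classical monocytes and cMoP the signs were opposite, with 0.24 for Rab32. Hps1 stayed at 7.45 on every array, and Hps4 lay between 7.08 and 7.48.

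Among the Rabs of late endosomes, lysosomes and autophagy, Rab29 had the widest range. In human cells RAB29 can bring the kinase LRRK2 to Golgi and lysosomal membranes, and LRRK2 phosphorylates several Rabs, among them RAB8A and RAB10. Rab29 had values of 7.89 in MDP, 8.35 in CDP, 8.48 in cMoP, 9.25 in classical monocytes and 10.32 in nonclassical monocytes. Both monocyte arrays stood above all progenitor arrays. The difference of nonclassical from classical monocytes was 1.07 (2.10-fold), and that of classical monocytes from cMoP was 0.78. Lrrk2 had values of 6.35 in MDP, 7.32 in CDP, 6.86 in cMoP, 8.56 in classical monocytes and 9.29 in nonclassical monocytes. It too was above all progenitor arrays on both monocyte arrays, and its difference of classical monocytes from cMoP was 1.70 (3.26-fold). Lrrk2 was looked up because of this partnership, with its values known.

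Rab7, which drives fusion of late endosomes and phagosomes with lysosomes, had values of 10.73 in MDP, 10.75 in CDP, 11.02 in cMoP, 11.42 in classical monocytes and 11.02 in nonclassical monocytes. Classical monocytes were highest, but none of the 5 comparisons reached 0.5 log2 units. Rab7b, a late endosomal Rab that lowers Toll-like receptor signalling in mouse macrophages, was at 5.74 in nonclassical monocytes, against 6.69 in classical monocytes, a difference of -0.95. Rab24, an atypical Rab of autophagosome clearance, was at 9.08 in nonclassical monocytes, against 10.06 in classical monocytes (-0.98), just short of 2-fold. Rab39, which acts on phagosomes and autophagosomes, had values of 5.93 in MDP, 6.39 in CDP, 5.69 in cMoP, 6.71 in classical monocytes and 6.87 in nonclassical monocytes. All 5 values lay close to the floor. Rab39 was higher in classical monocytes than in cMoP by 1.02 (at least 1.36-fold), but by 0.95 after quantile normalization. Rab9, which returns mannose 6-phosphate receptors from late endosomes to the Golgi, was highest in cMoP at 9.27 and lowest in nonclassical monocytes at 8.48. Rab12, which sends recycling receptors to lysosomes, was lowest in CDP at 6.32 and between 6.76 and 6.84 on the other 4 arrays.

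The Rabs of early and recycling endosomes differed in small steps. Rab5a, Rab5b and Rab5c govern fusion of early endosomes and the first stage of phagosome maturation. Rab5b had values of 7.80 in MDP, 7.47 in CDP, 8.61 in cMoP, 8.87 in classical monocytes and 8.48 in nonclassical monocytes. MDP and CDP were below the other 3 arrays. The difference of cMoP from CDP was 1.13 (2.19-fold), but 0.81 on the gene's second probe set and 0.97 with the mean of both. Which of the 2 probe sets reads the gene's own locus was not settled here, nor for Rab2a and Rab11b, so these values may include a related sequence. Rab5c had the same 2 low arrays, with 9.57 in MDP, 9.54 in CDP, 10.11 in cMoP, 10.42 in classical monocytes and 10.22 in nonclassical monocytes. Rab5a ran differently, with 8.01 in MDP, 7.87 in CDP, 7.73 in cMoP, 8.23 in classical monocytes and 8.71 in nonclassical monocytes. It was lowest in cMoP, where Rab5b and Rab5c were above MDP, and it was highest in nonclassical monocytes.

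Rab11a and Rab11b mark the recycling endosome, and Rab4b acts in fast recycling. Rab11b had values of 9.23 in MDP, 8.91 in CDP, 9.54 in cMoP, 10.00 in classical monocytes and 9.68 in nonclassical monocytes. Its second probe set was lower throughout, between 6.87 and 7.44, and also had its lowest value in CDP and its highest in classical monocytes. Rab11a lay between 8.47 in MDP and 9.19 in classical monocytes. Rab4b reached 9.30 in classical monocytes, with the other 4 arrays between 8.54 and 8.67. Rab22a, of early endosomes, was at 8.35 in classical monocytes, against 7.55 in cMoP, a difference of 0.80. Rab35, of recycling endosomes, was at 7.08 in nonclassical monocytes, against 7.87 in classical monocytes (-0.79). Rab14, Rab21 and Rab31, further endosomal Rabs, were also highest in classical monocytes, with ranges of 0.69, 0.26 and 0.55. Rab20, which acts in phagosome maturation in macrophages, was highest in nonclassical monocytes at 6.67, near the floor.

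Of the 11 early and recycling endosome genes tested between classical monocytes and cMoP, all 11 had a positive difference, with a median of 0.37. Of all genes 41.8% had a positive difference there, and of the whole Rab family 30 of 39. None of the 11 reached 2-fold. Between nonclassical and classical monocytes 12 were tested and 2 had a positive difference, Rab5a and Rab20, with a median of -0.33. There 39.4% of all genes were positive, and 11 of 40 in the whole family. All genes of the groups Rab5, Rab8 and Rab11 were past the floor on every array, while Rab27b, Rab3a, Rab3b and Rab3c stayed under the floor beside a relative that did not.

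**Figure D3:**
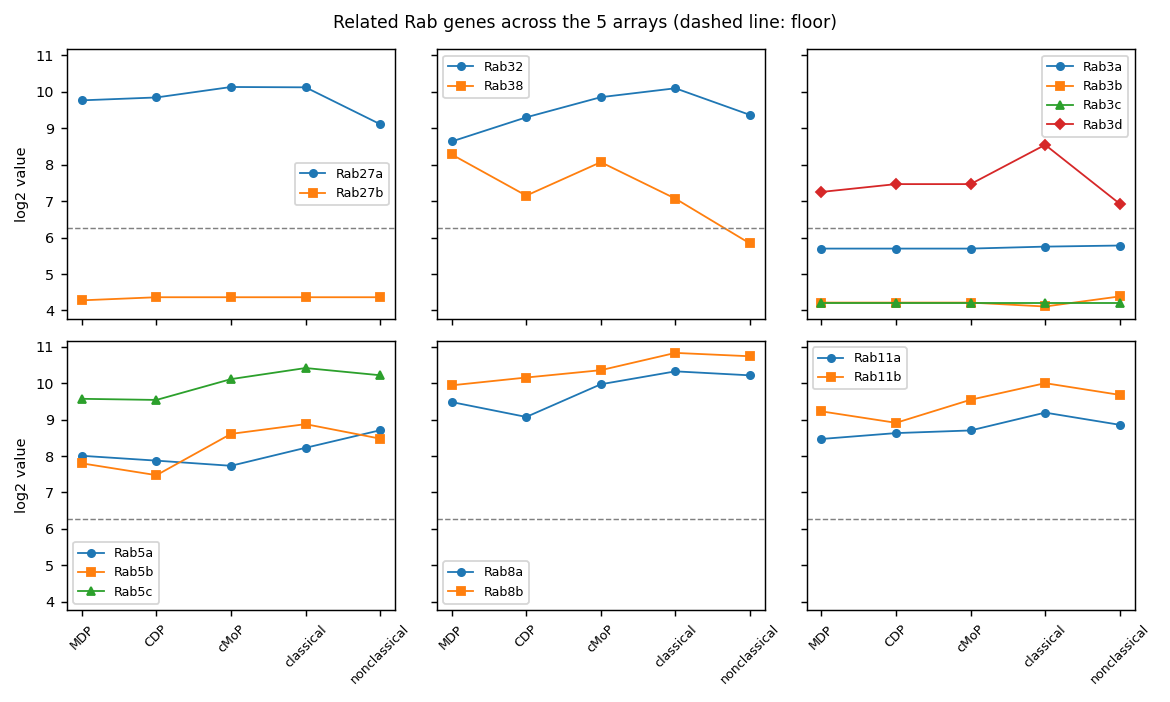
Each panel plots the log2 values (y axis) of closely related Rab genes on the 5 arrays (x axis, 1 point per population, lines only guide the eye), with the floor dashed. Rab27b, Rab3a, Rab3b and Rab3c lie under the floor of 6.269 on every array, and Rab32 peaks in the classical monocyte at 10.10 while Rab38 is highest in MDP at 8.28.

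The Rabs of the endoplasmic reticulum and Golgi included both a pair of even genes and a gene near or under the floor outside 1 population. Rab1a and Rab2a, which serve traffic between the endoplasmic reticulum and the Golgi, lay between 11.14 and 11.59 and between 10.35 and 10.72, ranges of 0.45 and 0.37 log2 units. Rab1b, the relative of Rab1a, had values of 8.37 in MDP, 8.30 in CDP, 9.48 in cMoP, 9.43 in classical monocytes and 9.04 in nonclassical monocytes. MDP and CDP were below the other 3 arrays, as for Rab5b and Rab5c. Rab1b was higher in cMoP than in MDP by 1.11 (2.16-fold) and higher in cMoP than in CDP by 1.18 (2.27-fold). Rab6a, of transport within and out of the Golgi, had a range of 0.41, and its relative Rab6b passed the floor in nonclassical monocytes alone, at 6.28. Rab2b, the relative of Rab2a, and Rab33b, a Golgi Rab that binds the autophagy protein Atg16l1, ranged over 0.33 and 0.38. Rab18, of lipid droplets and the endoplasmic reticulum, was lowest in CDP at 6.45 and highest in classical monocytes at 7.70.

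Rab19, a Golgi Rab, had values of 5.45 in MDP, 6.01 in CDP, 5.57 in cMoP, 6.30 in classical monocytes and 8.23 in nonclassical monocytes. The nonclassical array alone was clearly past the floor. The difference of nonclassical from classical monocytes was 1.93 (3.80-fold), the largest positive difference of any Rab gene in the 5 comparisons, and 124 of the 373 genes counted as higher there differed as much or more beside it. Rab43, a Golgi Rab that mouse dendritic cells need for cross-presentation, had values of 7.20 in MDP, 7.67 in CDP, 6.76 in cMoP, 7.67 in classical monocytes and 8.22 in nonclassical monocytes. It was lowest in cMoP, and its differences of cMoP from CDP (-0.91) and of classical monocytes from cMoP (0.91) both fell short of 2-fold. Rab36, which binds the effector RILP, was past the floor only in classical monocytes at 6.96, with 5.82 in cMoP, a difference of 1.14 (at least 1.62-fold). Of the ciliary Rabs, Rab23 was at 5.61 in nonclassical monocytes, against 6.24 in classical monocytes, and Rab28 was highest in cMoP at 7.27. Rab40c, a SOCS box Rab of ubiquitin ligases, held nearly 1 value on all arrays, from 6.93 to 6.94.

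RefSeq (GRCm38.p6) promoter windows of 250 bases before to 50 bases after a gene's start were matched for 48 of the 59 Rab genes. They are shown for the matched genes among the 6 that differed by 2-fold or more between the 2 monocyte arrays. These are Rab19 and Rab29, higher in nonclassical monocytes, and Rab27a and Rab3d, lower there. Rab44 and Rab38, also lower there, were not matched. Capitals mark matches on either strand to GAGGAA (the core bound by PU.1), CACGTG and CATGTG (E-boxes), CCAAT and GGGCGG (the GC box). Rab27a has 2 listed starts.
Rab19, chr6:39381103-39381402, plus strand: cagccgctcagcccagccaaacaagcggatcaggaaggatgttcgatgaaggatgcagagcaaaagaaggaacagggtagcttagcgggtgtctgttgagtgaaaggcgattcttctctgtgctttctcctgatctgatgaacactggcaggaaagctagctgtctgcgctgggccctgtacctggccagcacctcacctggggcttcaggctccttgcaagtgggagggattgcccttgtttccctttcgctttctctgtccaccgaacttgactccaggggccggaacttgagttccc
Rab27a, chr9:73044560-73044859, plus strand: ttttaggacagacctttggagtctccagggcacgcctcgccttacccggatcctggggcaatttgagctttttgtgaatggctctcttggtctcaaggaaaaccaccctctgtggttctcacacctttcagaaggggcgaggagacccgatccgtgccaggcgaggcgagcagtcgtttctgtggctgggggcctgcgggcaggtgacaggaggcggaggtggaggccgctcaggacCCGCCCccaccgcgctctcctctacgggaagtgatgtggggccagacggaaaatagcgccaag
Rab27a, chr9:73063898-73064197, plus strand: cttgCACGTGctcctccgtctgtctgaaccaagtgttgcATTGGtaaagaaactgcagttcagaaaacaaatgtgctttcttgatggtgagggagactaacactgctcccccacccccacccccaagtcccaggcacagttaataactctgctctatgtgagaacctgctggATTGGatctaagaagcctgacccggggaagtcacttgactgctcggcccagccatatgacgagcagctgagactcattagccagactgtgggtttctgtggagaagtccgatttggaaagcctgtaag
Rab29, chr1:131867027-131867326, plus strand: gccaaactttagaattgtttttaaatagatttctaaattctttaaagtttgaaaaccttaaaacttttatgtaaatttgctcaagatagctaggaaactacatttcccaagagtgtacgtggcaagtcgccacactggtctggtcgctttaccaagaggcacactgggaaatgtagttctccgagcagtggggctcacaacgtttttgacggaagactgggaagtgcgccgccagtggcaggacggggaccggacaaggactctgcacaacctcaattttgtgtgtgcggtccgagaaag
Rab3d, chr9:21918134-21918433, minus strand: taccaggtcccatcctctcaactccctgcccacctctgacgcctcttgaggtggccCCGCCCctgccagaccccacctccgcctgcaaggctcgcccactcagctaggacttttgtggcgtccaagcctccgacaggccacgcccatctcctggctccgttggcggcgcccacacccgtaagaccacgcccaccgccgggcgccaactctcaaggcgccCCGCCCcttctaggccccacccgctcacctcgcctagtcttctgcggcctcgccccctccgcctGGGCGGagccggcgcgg

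The windows of Rab19 and Rab29 held none of the 5 motifs. Rab3d held 3 GC boxes, the first Rab27a window 1 GC box, and the second 1 CACGTG and 2 CCAAT. Over the 60 windows of the matched Rab genes, GGGCGG stood in 68.3% (35.7% of all 32851 windows), CCAAT in 43.3% (37.4%), GAGGAA in 18.3% (28.3%), CACGTG in 10% (7.15%) and CATGTG in 10% (14.2%). These matches are letters in a window and do not show that a factor binds.

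Over the family, the comparisons of CDP with MDP and of cMoP with either progenitor counted few Rab genes. Between CDP and MDP, 38 were tested, 0 were higher by 2-fold (1.15% of all genes were) and 1 was lower (1.06%). Between cMoP and MDP, 37 were tested, 2 were higher (5.41%, against 1.44% of all genes) and 1 was lower (2.70%, against 1.4%). Between cMoP and CDP, 38 were tested, 2 were higher (5.26%, against 3.23%) and 1 was lower (2.63%, against 2.2%). With counts of 1 or 2 genes, no reading beyond the genes themselves is possible. The median difference of the Rab genes was -0.06 for CDP minus MDP, 0.16 for cMoP minus MDP and 0.17 for cMoP minus CDP. For all genes these medians were -0.01, 0.00 and 0.02. After quantile normalization the Rab medians were 0.01, 0.14 and 0.12 in the same order, nearer to the 0.03, 0.10 and 0.07 of all genes. Comparisons that share an array are not independent of each other.

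The step to classical monocytes came with small positive differences across most Rab genes past the floor. Of 39 Rab genes tested between classical monocytes and cMoP, 30 had a positive difference (76.9%), against 41.8% of all 10305 genes, and the median was 0.30, against -0.01. Only 3 were higher by 2-fold (7.69%, against 7.01% of all genes) and 2 were lower (5.13%, against 4.4%), so the counts past 2-fold were near the background. Among genes past a floor at the upper quartile, the medians were 0.30 for the 26 Rab genes and 0.00 for all genes. With no floor, 35 of the 59 Rab genes had a positive difference, and their median was 0.075, against 0 for all genes. The share of all genes with a positive difference was not computed with no floor, and the 41.8% holds only for genes past the floor.

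Between nonclassical and classical monocytes the differences of the family were mostly negative. Of 40 Rab genes tested, 29 had a negative difference and 11 a positive one (27.5%, against 39.4% of all genes), with a median of -0.30, against -0.09 for all genes. By 2-fold, 2 were higher (5%, against 3.55% of all genes) and 4 were lower (10%, against 9.82%). Among genes past the upper quartile floor the median of all genes was -0.27, close to the -0.32 of the 27 Rab genes, so the negative shift is shared with other genes of high signal. After quantile normalization the Rab median was -0.11 and that of all genes was -0.0049.

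**Figure D4:**
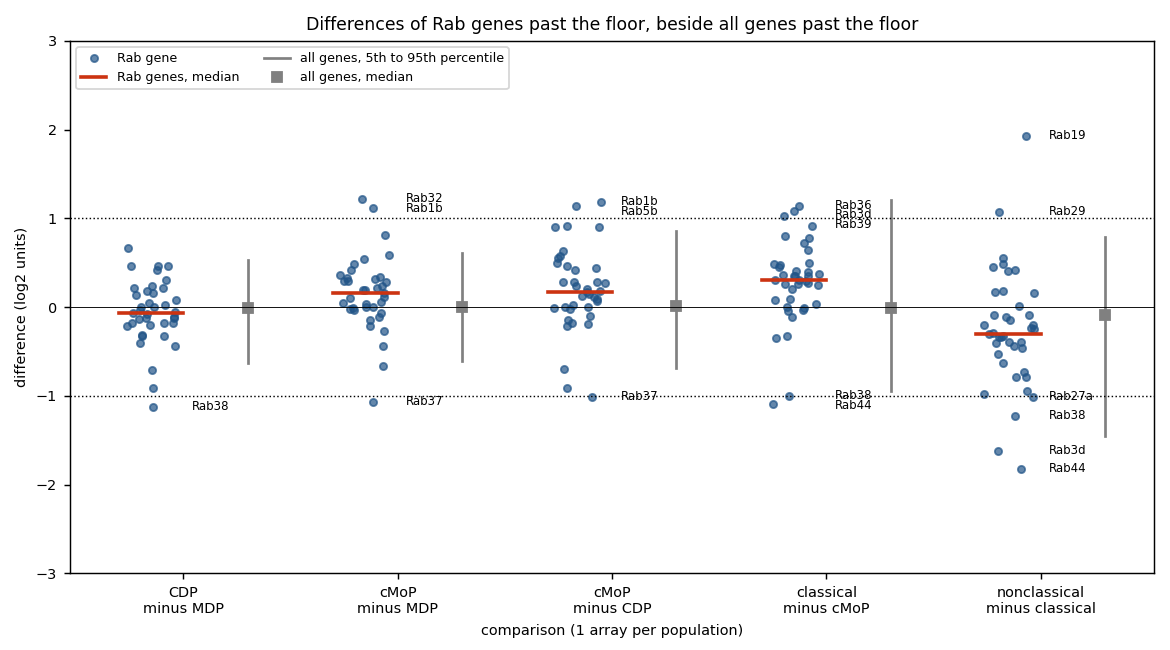
Blue points are differences (y axis, log2 units) of Rab genes past the floor in each of the 5 comparisons (x axis), with their median in red, beside the median (square) and the 5th to 95th percentile (line) of all genes past the floor, and dotted lines at 2-fold. The red median lies at 0.30 for classical monocytes minus cMoP and at -0.30 for nonclassical minus classical monocytes, and few points pass 2-fold.

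Read across the arrays, the classical monocyte array held the highest value of 23 of the 42 Rab genes past the floor (54.8%), against 17.8% of all genes. The nonclassical array held 11 (26.2%, against 25.4%), MDP and cMoP 4 each (9.52%, against 18.1% and 23.9%) and CDP 0 (against 12.7%). CDP held the lowest value of 15 (35.7%, against 13.4%), and the classical monocyte array that of 2 (4.76%, against 14.7%). These counts were chosen after the values were seen. The number highest in classical monocytes was 20 of 41 after quantile normalization and 25 of 42 after centring, and the number lowest in CDP was 13 and 19. The shares of all genes were not computed in these settings, so these counts have no background to be read against.

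**Figure D5:**
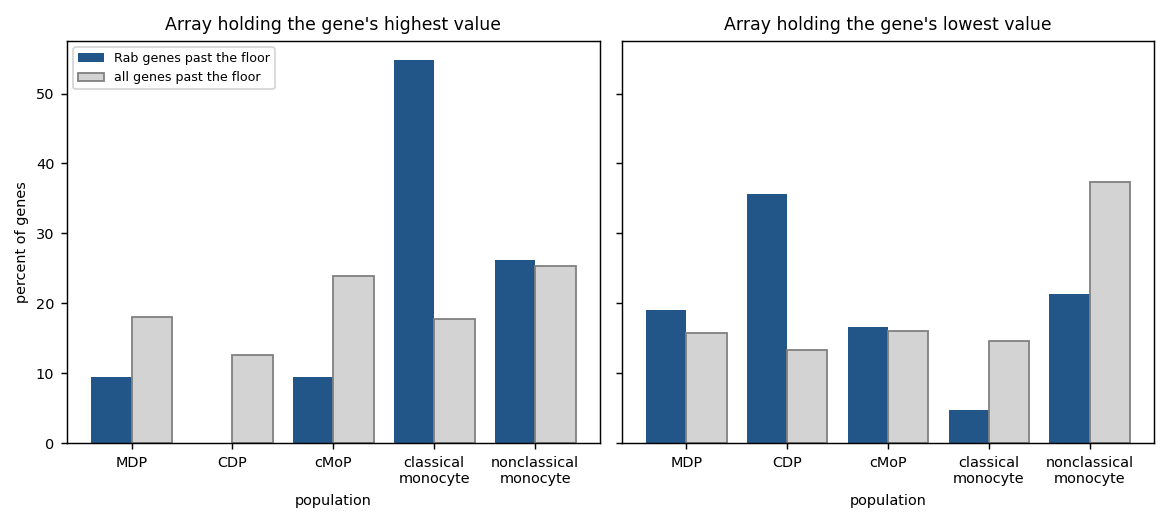
Bars give the percent of genes (y axis) whose highest (left) or lowest (right) value lies on each array (x axis), for the 42 Rab genes (blue) and all genes (grey) past the floor. The tallest blue bar on the left is that of classical monocytes at 54.8%, and on the right that of CDP at 35.7%.

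Of 7 measured genes of prenylation and GDI, which attach the lipid anchor and extract Rabs from membranes, 0 passed 2-fold in any of the 5 comparisons, where 1.06% to 9.82% of all genes did in 1 direction. With 7 genes this count is near the background. Gdi2, a GDP dissociation inhibitor, lay between 10.44 and 10.69. Rabggtb, the catalytic subunit of the geranylgeranyl transferase, had values of 9.46 in MDP, 9.02 in CDP, 9.49 in cMoP, 8.68 in classical monocytes and 7.78 in nonclassical monocytes. It ranged over 1.72 log2 units, with the nonclassical array lowest, and no single comparison reached 2-fold.

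Of the 5 comparisons, exchange factors passed 2-fold only in that of classical monocytes with cMoP, with 3 of 40 tested higher and 0 lower. In that comparison 7.01% of all genes were higher and 4.4% lower, so the counts of the 3 lists given here were near the background. Rin2, an exchange factor for Rab5, was at 8.81 in classical monocytes, against 6.49 in cMoP, a difference of 2.33 (5.02-fold). Dennd1c, an exchange factor of the DENN family, was higher by 1.27, and C9orf72, part of a complex with Smcr8, by 1.08 (at least 1.33-fold, with its cMoP value under the floor). In that comparison GTPase-activating proteins had 2 of 33 higher, Tbc1d9 at 1.67 (at least 2.65-fold) and Evi5 at 1.08, and 1 lower, Tbc1d19 at -1.04 (at least 1.36-fold). Effectors had 4 of 53 higher, Lrrk2 with Ehbp1l1 (1.06), Wdr44 (1.04) and Inpp5k (1.01), and 1 lower, Hook1 at -1.73 (at least 1.49-fold). Beside Rin2, Hook1 and Lrrk2, which had the 3 largest differences of the deposited values, these genes are named to complete the counts, after their values were seen.

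In nonclassical against classical monocytes, 0 of 41 exchange factors, 1 of 32 GTPase-activating proteins and 2 of 53 effectors tested passed 2-fold. All 3 were lower. Of all genes 3.55% were higher and 9.82% lower there. The counts were thus not above the background, and lower was also the commoner direction of all genes. Kif20a, a mitotic kinesin first known as a Rab6 binding protein, was at 5.98 in nonclassical monocytes, against 8.73 in classical monocytes (-2.75, at least 5.52-fold). Acap1 was lower by -1.91 (at least 2.35-fold) and Tbc1d31 by -1.17. Among the progenitors 2 genes of these lists passed 2-fold. Ocrl, a phosphoinositide phosphatase that binds several Rabs, was lower in CDP than in MDP by -1.12. It was 1 of 54 effectors tested, where 1.06% of all genes were lower. Rab3gap2, a subunit of the Rab3 GTPase-activating complex, was higher in cMoP than in CDP by 1.14. It was 1 of 34 GTPase-activating proteins tested, where 3.23% of all genes were higher. With 1 gene each, these counts were near the background.

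Markers of other granule-bearing cells were read beside Rab44, Rab27a, Rab3d and Rab37, since such cells also use these Rabs. Of 12 neutrophil markers, 5 lay at or above the floor in nonclassical monocytes and 8 in classical monocytes, and the sums of the list's log2 values were 76.3 and 97.1. In the progenitors 5, 5 and 8 markers were past the floor in MDP, CDP and cMoP, with sums of 74.8, 73.7 and 84.8. The defining neutrophil genes Ly6g and Ltf were under the floor on every array. Camp, a granule gene, was at 6.64 in nonclassical and 6.89 in classical monocytes, and Ngp, another, at 6.24 and 6.62 on these arrays. Lcn2 was at 5.91 in nonclassical and 10.45 in classical monocytes, and Mmp8 at 4.32 in nonclassical and 11.28 in classical monocytes. S100a8, which monocytes also express, was at 7.86 in nonclassical and 12.64 in classical monocytes. Lcn2, Mmp8 and S100a8 were lower in nonclassical than in classical monocytes, as were Rab44, Rab27a and Rab3d, and S100a9 was also lower (-3.89). Other listed markers differed less, with Csf3r (0.38), Ltf (0.31) and Mmp9 (0.04) positive and Cxcr2 (-0.30) and Cebpe (-0.43) negative. Rab44 was highest in MDP, where Lcn2 was at 6.14, S100a8 at 6.115 and Mmp8 at 7.165. Cxcr2 was also highest in MDP, at 7.55. Of 11 measured markers of basophils, mast cells and eosinophils, between 2 and 4 were past the floor on each array, with sums from 58.7 in classical monocytes to 65.1 in cMoP. The defining Cpa3, Ms4a2 and Fcer1a were under the floor on every array, and Mcpt8 was at 8.95 in MDP, 7.99 in CDP, 8.70 in cMoP, 6.71 in classical and 7.50 in nonclassical monocytes. Hdc, the histidine decarboxylase of mast cells and basophils, was at 9.09 in cMoP and between 5.80 and 6.57 on the other 4 arrays. Prss34, a mast cell and basophil protease, was at 7.86 in nonclassical monocytes, against 6.52 in classical monocytes (1.34). The part of these cells in the Rab values was not tested.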

How the data were processed

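RNA of 5 sorted mouse bone marrow populations, 1 array each, was extracted with an RNAqueous-Micro kit and biotin-labelled with a Nugen Encore kit, per the labels' protocols. The authors deposited a table of log2 values for 35556 probe sets, running from 1.59 to 14.24. That the scale is log2 was inferred from this range, and with another base each fold would change. The base, background correction, normalization and software are steps not given in the sources used here.

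Genes were named from the platform annotation (21789 probe sets with 1 symbol, 19938 genes), and all 59 Rab symbols matched RefSeq by Entrez identifier. Where a gene had several probe sets (3 Rab genes), the one with the highest mean was used. Members, role lists, pathway lists, markers and motifs were chosen with earlier results of these data known. By rule, Rab genes that range over 1 log2 unit or more, those of highest or lowest mean, and paralogs get values. Other Rab genes past the floor, among them Rab24, Rab22a and Rab35, are given selected values outside that rule. Of the pathway lists the 3 largest differences per comparison are named, with others named to complete counts or as partners of a Rab gene. Counting was tested on simulated data with shifts well past 2-fold in genes well past the floor. That checks the counting itself and not the differences close to 2-fold. Alternatives were quantile normalization, median centring, other floors, a threshold of 0.5 log2 units and other uses of probe sets. Protein sequences were not used here. Python 3.11.15, numpy 2.4.6, pandas 2.3.3 and matplotlib 3.10.9 were used.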

Additional observations from a re-analysis of the deposited data

How the results depend on the processing

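No paired analysis was possible because each population has 1 array, and no replicate could be left out. Of the 18 single-gene differences past 2-fold, 13 of 126 values under the alternatives no longer met the counting rule. Of these, 8 fell inside 2-fold, and 5 missed the floor at the upper quartile alone. The 8 were 5 under quantile normalization, 2 under centring and 1 with the mean of probe sets. The floor and threshold settings keep the same differences, so no sign could change there. With no floor or the lower threshold no difference could fail. Probe sets with several symbols left all 18 as they were. In the remaining settings 0 changed sign. Counts were judged to move when they changed by over 1.5 times, and medians when they changed by over 0.1. After quantile normalization, 0 Rab genes were lower in cMoP than in MDP and 0 lower in cMoP than in CDP, 1 was higher in classical monocytes than in cMoP, and the median for nonclassical minus classical monocytes was -0.11. It moved the median of all genes for cMoP minus MDP to 0.10. After centring, 0 were lower in cMoP than in CDP and 1 lower in classical monocytes than in cMoP. With the floor at the upper quartile, 0 were lower in cMoP than in MDP, 0 lower in cMoP than in CDP and 1 higher in classical monocytes than in cMoP. There the Rab medians were 0.28 for cMoP minus MDP and 0.28 for cMoP minus CDP, against 0.04 and 0.13 for all genes. With fewer genes tested, 9 of 22 Rab genes had positive differences for CDP minus MDP and 5 of 27 for nonclassical minus classical monocytes. With no floor these 2 counts were 27 and 21 of 59. Positive differences of all genes were not counted at either of these floors. With no floor the Rab medians were 0.060 for cMoP minus MDP, 0.034 for cMoP minus CDP and 0.075 for classical monocytes minus cMoP, against 0 for all genes in each. For nonclassical minus classical monocytes the Rab median was -0.14, against 0.014 for all genes. With the threshold at 0.5 log2 units, the counts of all genes also rose. Between CDP and MDP, 1 of 38 Rab genes was higher and 3 lower (581 and 939 of all 10416 genes). Between cMoP and MDP, 5 of 37 were higher and 2 lower (796 and 758 of 10235). Between cMoP and CDP, 8 of 38 were higher and 3 lower (1601 and 925 of 10441). In classical monocytes 8 of 39 were higher than in cMoP (1649 of 10305). In nonclassical monocytes 11 of 40 were lower than in classical monocytes (2686 of 10503). In that setting 1 Rab gene lay above and 1 below all progenitors in both monocytes, 33 of 42 ranged over the threshold and 7 led an array. The shares of all genes with these patterns were not computed at that threshold, so these counts have no background to be read against. With the mean of probe sets, 1 was higher in cMoP than in CDP, and 15 Rab genes, not 16, ranged over 1 log2 unit or more. Beyond the threshold and floor settings, whose construction changes the counts, the cause was not tested.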
